A study of Mus musculus with 5 samples.

Results

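The genes described here make, carry, bind and degrade retinoic acid (RA), the inducer used to turn mouse embryonic stem (ES) cells into motor neurons. They are 9 of the 19893 genes with a value on all arrays: Stra6, Rdh10, Dhrs3, Aldh1a2, Aldh1a3, Crabp1, Crabp2, Cyp26a1 and Cyp26b1. They were taken by name, and every probe whose accession leads to one of these symbols was used, which gave 1 probe and 1 spot on each array for each gene. All samples were wild type male cells, and the labels name no strain or cell line. The ES sample was undifferentiated. The Day2 sample was embryoid bodies, which are floating aggregates of differentiating cells, after 8 h of RA. The Day3 sample had 1 day and the Day4 sample 2 days of RA as embryoid bodies. The Day7 sample, called both motor neurons and embryoid bodies in its labels, came after 5 days of RA. The labels give RA together with Shh from day 2 to day 5, so they differ on whether RA was still in the medium up to Day7, and the methods of the study name a smoothened agonist in place of Shh. Each time point was measured on 1 single-channel Agilent array, so there was no spread between replicates and no test was made. The question addressed is how the cells' own retinoid genes moved while RA was supplied from outside.

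Retinoic acid is made from vitamin A in successive oxidations. Retinol enters cells through STRA6, is oxidised to retinaldehyde by RDH10 and back-reduced by DHRS3, and retinaldehyde is oxidised irreversibly to RA by enzymes of the ALDH1A family. CRABP1 and CRABP2 carry RA in the cytosol, RAR and RXR receptors bind it on DNA, and CYP26 enzymes hydroxylate it for disposal. In the embryo, RA from the mesoderm beside the neural tube patterns the hindbrain and spinal cord, and several genes of its metabolism are themselves RA targets.

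Values are log2 processed signals after quantile normalization, which gives all arrays one distribution. This is meant to make a probe's level comparable between arrays, but not with the level of another probe. Errors beside a change are the scanner's own estimate for 1 spot, combined over both arrays, and they leave out biological variation. A gene was counted as raised or lowered where it changed by at least 2-fold. Where a probe was not well above background on one array, the change is a bound. It is taken from the probe's own value or from the dimmest detected probe of that array, whichever is brighter. The Day2 array stood apart: the scanner called 86.7% of mouse probes well above background there and 57.5% to 65.7% on the other arrays, and probes for ERCC sequences, which are not from mouse, were so in 65.6% of cases, against 4.17% to 9.38%. After normalization the dimmest detected probe read 2.60 on Day2 and 4.05 to 5.22 on the others, so Day2 levels of dim probes are less comparable. The Day7 array was alone on the second slide, so in any comparison with Day7 the slide and the time point cannot be told apart. Markers were compared with the labelled course. Of 5 ES cell markers, 4 were lowered from ES to Day7 and Nanog was not (-0.40). Pou5f1, a core pluripotency factor, went from 12.39 on ES to 8.22 on Day7, Olig2, the factor of motor neuron progenitors, read 10.34 on ES, 8.47 and 7.87 on Day2 and Day3, 11.47 on Day4 and 7.35 on Day7, and Chat, which makes acetylcholine, went from not well above background on ES to 12.21 on Day7. Mnx1 had no matched probe and is not analysed here.

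The enzymes that degrade RA made some of the largest moves on these arrays. Cyp26a1, known as an early RA target, had log2 signals of 6.50 on ES and 13.66, 15.40, 15.22 and 8.09 on Day2, Day3, Day4 and Day7. It was well above background on all 5 arrays, low on ES and Day7 and high on the 3 between. It was 7.16 ± 0.24 log2 units higher on Day2 than on ES, or 143-fold, and 8.90 ± 0.24 higher on Day3, or 477-fold. The rise to Day2 was the 11th largest among 18313 genes with a value, and that to Day3 the largest among 15201. Ranks here and further on enter bounds at their bound, so a gene with a bound may in fact rank higher. In RNA from whole cultures, more cells of a type and more RNA per cell cannot be told apart.

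Between Day3 and Day4, Cyp26a1 was 1.13-fold lower, which is within the scanner error. It then fell by 7.14 log2 units to Day7, or 141-fold, the 3rd largest fall among 16080 genes. On Day7 it was 1.58 ± 0.24 log2 units above ES, still past 2-fold.

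The promoter of Cyp26a1 is printed because it was the only one of a member that held a paired retinoid receptor motif. RAR and RXR bind DNA as a pair, on 2 hexamers in the same orientation. The search took AGGTCA or AGTTCA or GGGTCA or GGTTCA as a hexamer, on both strands, with 1, 2 or 5 bases between (called DR1, DR2 and DR5). RefSeq promoters, from 250 bases before to 50 bases after a transcript start in assembly GRCm38.p6, were given for 6 of the 9 genes (Aldh1a2, Crabp1, Cyp26a1, Cyp26b1, Dhrs3 and Stra6), 11 windows in all. The Cyp26a1 window lies at chr19:37697558-37697857 on the + strand, and the hexamers of its DR5 are in capitals.

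Cyp26a1 promoter: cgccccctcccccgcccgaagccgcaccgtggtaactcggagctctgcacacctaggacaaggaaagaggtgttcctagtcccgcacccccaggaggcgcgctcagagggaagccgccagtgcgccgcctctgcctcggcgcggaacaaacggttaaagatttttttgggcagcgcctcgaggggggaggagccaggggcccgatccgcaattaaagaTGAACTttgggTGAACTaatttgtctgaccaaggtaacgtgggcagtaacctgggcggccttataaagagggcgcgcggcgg

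Read on the - strand, the motif is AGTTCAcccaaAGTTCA, from 16 to 32 bases before the start. A DR5 by this search was in 32 of 32851 promoters, or 0.0974%, a DR2 in 0.268% and a DR1 in 0.222%, and a lone hexamer in 43.7%. No DR1 or DR2 was in the 11 windows, and no DR5 in the 10 others. These letters describe a short window only and say nothing of elements elsewhere or of binding in these cells.

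Cyp26b1, the second CYP26 enzyme, rose more slowly. It read 6.15 on ES and 9.37, 11.18, 14.71 and 10.62 on Day2, Day3, Day4 and Day7, with a peak on Day4. The change from ES was 3.22 ± 0.26 on Day2 (9.32-fold), 5.03 ± 0.26 on Day3 (32.7-fold) and 8.56 ± 0.26 on Day4 (378-fold). From Day3 to Day4, where Cyp26a1 hardly moved, Cyp26b1 was 3.53 ± 0.20 higher, the 13th largest rise among 15624 genes. It dropped by 4.10 log2 units to Day7, 17.1-fold, and stayed 22.1-fold above ES. The third enzyme of the family, Cyp26c1, was well above background on Day2 and Day4 but not on ES, Day3 or Day7, with a rise of at least 1.04 log2 units from ES to Day4.

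**Figure D1:**
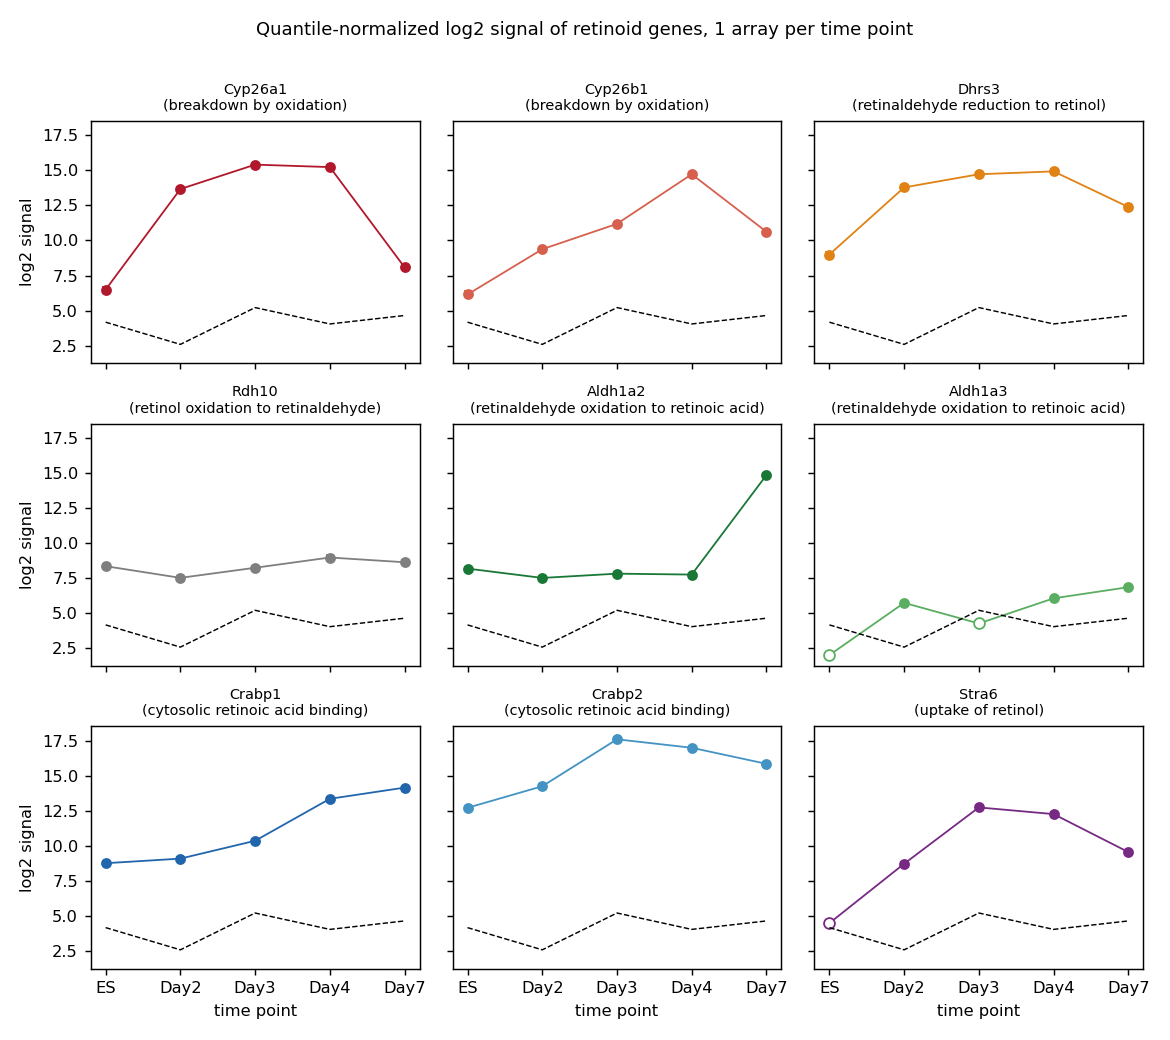
Log2 quantile-normalized signal (vertical axis) of the 9 retinoid genes on each array, 1 panel per gene and 1 point per time point, with time points evenly spaced and not to scale. Filled points are well above background, open points are not, small bars are the scanner's error, and the dashed line is the dimmest detected probe of that array. Cyp26a1 is high on Day2 to Day4 only, at 13.66 to 15.40, whereas Aldh1a2 is high on Day7 only, at 14.85.

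Retinaldehyde can be turned back to retinol or on to RA, and its enzymes did not move alike. Dhrs3, which reduces retinaldehyde to retinol and so withholds it from RA synthesis, had signals of 9.00 on ES and 13.78, 14.72, 14.92 and 12.38 on Day2, Day3, Day4 and Day7. All 4 later arrays were above ES. The rise was 4.78 ± 0.21 to Day2 (27.4-fold), 5.72 ± 0.21 to Day3 (52.6-fold) and 5.92 ± 0.21 to Day4 (60.5-fold). The step from Day3 to Day4 was 0.20 ± 0.20, no larger than its scanner error. By Day7 Dhrs3 had dropped by 2.53 log2 units from Day4, 5.79-fold, and was 3.39 ± 0.21 above ES. Rdh10, which works in the opposite direction and oxidises retinol, read 8.36 on ES and 7.53, 8.25, 8.98 and 8.64 on Day2, Day3, Day4 and Day7. None of its changes from ES reached 2-fold, and they lay between -0.83 ± 0.21 on Day2 and 0.62 ± 0.21 on Day4. Its whole range, from Day2 to Day4, was 2.73-fold, against 60.5-fold for Dhrs3.

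Of the enzymes that make RA itself, Aldh1a2 rose late and Aldh1a3 was dim. Aldh1a2, the main RA-producing enzyme of the early embryo and a gene of limb-level motor neurons, read 8.19 on ES and 7.52, 7.83, 7.76 and 14.85 on Day2, Day3, Day4 and Day7. Its first 4 values were within 0.67 log2 units of one another, and Day7 was far above them all. With no normalization, its change from ES to Day4 was -1.34 in place of -0.43, past 2-fold. From Day4 to Day7 it rose by 7.09 ± 0.21, or 136-fold, the 35th largest rise among 16080 genes. Against ES the Day7 level was 6.66 ± 0.21 higher, or 101-fold. Aldh1a3, the family member known from eye and olfactory tissue, read 5.75 on Day2, 6.07 on Day4 and 6.87 on Day7. It was not well above background on ES, where it read 2.03, or on Day3, where it read 4.28. It was thus at least 2.97-fold higher on Day2 than on ES, at least 3.71-fold on Day4 and at least 6.44-fold on Day7, with no value from ES to Day3. These bounds lie near the background: with normexp background correction the bound fell to 0.58 log2 units on Day2 and 0.65 on Day4, with no normalization to 0.94 on Day4, and with the ERCC probes as the floor to 0.29 on Day7, all under 2-fold. Taken at its own dim value on ES with no filter, Aldh1a3 was 3.72, 4.04 and 4.83 log2 units higher on Day2, Day4 and Day7.

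Cell type markers are given for the step from Day4 to Day7, over which Aldh1a2 rose. Over all genes, 18.1% were raised and 18.1% lowered at this step. Of 4 motor neuron markers with a probe, 4 were raised, and the mean log2 signal of the list was 7.24 on ES and 7.23, 6.74, 8.34 and 13.07 on Day2, Day3, Day4 and Day7. For 5 pan-neuronal markers it was 9.16, 9.50, 8.99, 9.75 and 15.61 in the same order, with 5 raised. Markers of meninges and fibroblasts, where Aldh1a2 is also known, went both ways, with 1 of 5 raised (Dcn, 5.21) and 1 lowered (Foxc1, -1.52), and had list means of 7.55, 7.67, 8.94, 9.03 and 9.66. Of 5 mesoderm markers, 3 had a value, none was raised and 1 was lowered (Meox1, -2.05), Mesp1 and T were not well above background on either array, and the list means were of 6.72, 5.26, 7.14, 6.69 and 6.41. The 5 floor plate markers were all raised, with list means of 6.04, 5.84, 7.34, 7.50 and 13.72. Of 4 endoderm markers with a value, none was raised and 3 were lowered (Sox17, -4.02 or lower, Gata6, -3.85, and Gata4, -2.54). Of 5 neural progenitor markers, 1 was raised (Nkx6-1, 1.58) and 2 were lowered (Pax6, -5.11, and Olig2, -4.12). Of 5 ES cell markers, none was raised and 3 were lowered. The part of any of these cell types in the Aldh1a2 signal was not tested.

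Both cytosolic binding proteins rose, one early and one late. Crabp2, which hands RA to its nuclear receptors, read 12.71 on ES and 14.25, 17.59, 16.99 and 15.84 on Day2, Day3, Day4 and Day7. It was bright on every array and highest on Day3. It was 1.54 ± 0.20 higher on Day2 than on ES (2.90-fold) and 4.88 ± 0.20 on Day3 (29.4-fold), so the step from Day2 to Day3, 10.1-fold, was the larger. It was 1.52-fold lower on Day4 than on Day3 and dropped by 1.14 log2 units from Day4 to Day7, which left it 8.77-fold above ES. The Day4 to Day7 fall was under 2-fold, at -0.32, with no normalization. Crabp1, which binds RA in the cytosol and is a known marker of hindbrain and neural crest, read 8.77 on ES and 9.09, 10.36, 13.35 and 14.15 on Day2, Day3, Day4 and Day7. It was highest on Day7, as was Aldh1a2. The change from ES was 0.33 ± 0.21 on Day2, under 2-fold, then 1.60 ± 0.21 on Day3 (3.03-fold), 4.59 ± 0.21 on Day4 (24.0-fold) and 5.38 ± 0.21 on Day7 (41.7-fold). Its largest step was from Day3 to Day4, 7.94-fold. The step from Day2 to Day3, 2.41-fold, was 0.48 log2 units with no normalization.

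Stra6, the membrane receptor through which retinol is taken up and a gene named for its stimulation by RA, was, like Crabp2, highest on Day3, but had risen further by Day2. It read 4.50 on ES, where it was not well above background, and 8.73, 12.74, 12.26 and 9.56 on Day2, Day3, Day4 and Day7. The rise from ES was at least 18.8-fold on Day2, at least 303-fold on Day3 and at least 218-fold on Day4. From Day2 to Day3, where both arrays measured it, Stra6 rose by 4.01 ± 0.20, or 16.1-fold. It dropped by 2.70 log2 units from Day4 to Day7, 6.51-fold, and remained at least 33.4-fold above ES. The bounds against ES depend on how the dim ES spot is treated. With the ERCC probes as the floor the Day2 bound was 2.15 log2 units in place of 4.23, and with normexp background correction the bounds were 2.23, 5.92, 5.48 and 2.85 on Day2, Day3, Day4 and Day7.

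Some markers of the other germ layers changed past 2-fold on Day3 and Day4, when Stra6 and Crabp2 were high. Over all genes, 15.6% were raised and 10.2% lowered from ES to Day3, and 17.0% and 14.4% to Day4. Of 5 endoderm markers, 4 had a value and 2 were raised from ES to Day3 and to Day4 (Sox17 and Gata6). The list means were 6.63 on ES and 5.99, 7.72, 8.09 and 6.11 on Day2, Day3, Day4 and Day7, and Afp was well above background on none of the arrays. Of the mesoderm markers, Meox1 was raised on Day3, by at least 5.16, while T (-1.95 or lower) and Hand1 (-1.41) were lowered. Of the meningeal and fibroblast markers, Col1a2 and Foxc1 were raised on Day3 and Dcn was lowered (-1.40). Of 5 neural progenitor markers, 3 were raised and 1, Olig2, was lowered (-2.47) on Day3, and 3 were raised and none lowered on Day4, with list means of 9.22, 9.07, 10.07, 11.57 and 10.38. The part of these cells in the retinoid signals was not tested.

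**Figure D2:**
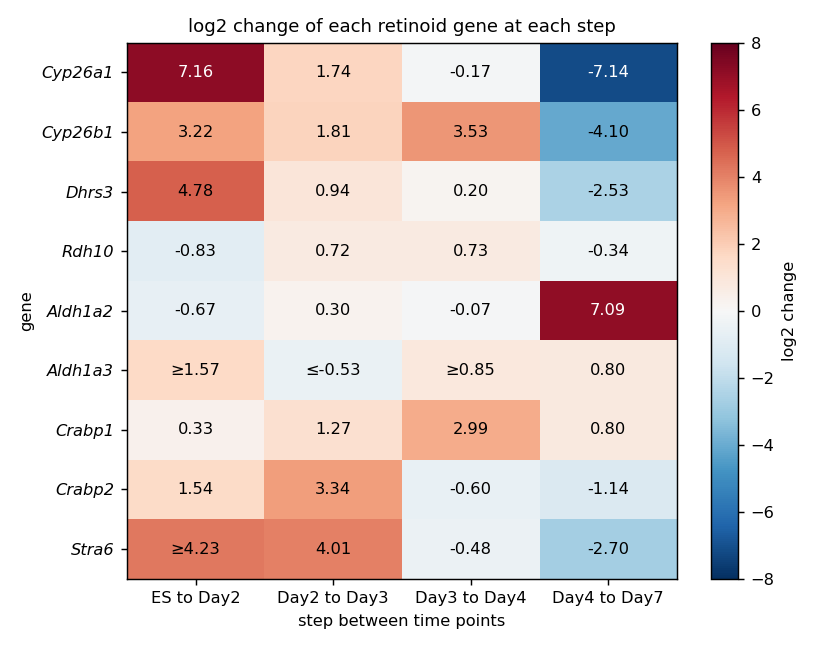
Log2 change of each of the 9 genes (rows) over each step between neighbouring time points (columns), coloured on the scale at the right, with bounds marked by a sign. The largest positive values are those of Cyp26a1 from ES to Day2 (7.16) and Aldh1a2 from Day4 to Day7 (7.09), and the last step is negative for Cyp26a1, Cyp26b1, Dhrs3, Rdh10, Crabp2 and Stra6.

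Counted together, the 9 genes were mostly raised and none was lowered against ES. From ES to Day2, 6 of 9 were raised, where 10.7% of all genes were raised and 11.3% lowered. The 3 others, Crabp1, Aldh1a2 and Rdh10, changed by less than 2-fold. The median change of the 9 genes was 1.57, with bounds entered at their bound, against 0.00 over all genes. From ES to Day3, 6 of 8 with a value were raised, against 15.6% of all genes (10.2% lowered), and the medians were 4.95 and 0.06. From ES to Day4, 7 of 9 were raised, against 17.0% (14.4% lowered), with medians of 4.59 and 0.05. From ES to Day7, 8 of 9 were raised, against 24.8% (24.4% lowered), with medians of 3.39 and -0.07. The gene not called on Day7 was Rdh10, at 0.28 ± 0.21.

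The steps between neighbouring time points differed in which genes moved. From Day2 to Day3, 5 of 9 were raised (Stra6, Crabp2, Cyp26b1, Cyp26a1 and Crabp1), against 13.0% of all genes, and none was lowered, against 7.76%. From Day3 to Day4, 2 of 9 were raised, Cyp26b1 and Crabp1, against 3.62% (4.87% lowered). From Day4 to Day7, 1 was raised, Aldh1a2, against 18.1%, and 5 were lowered, against 18.1%: Cyp26a1, Cyp26b1, Stra6, Dhrs3 and Crabp2. The medians for these steps were 1.27, 0.20 and -1.14 over the 9 genes and 0.00, -0.01 and -0.12 over all genes. Crabp1, at 0.80 ± 0.20, Aldh1a3, at 0.80 ± 0.23, and Rdh10, at -0.34 ± 0.21, changed by less than 2-fold at the last step. The comparisons share arrays, ES in 4 of them, and are not independent of one another.

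**Figure D3:**
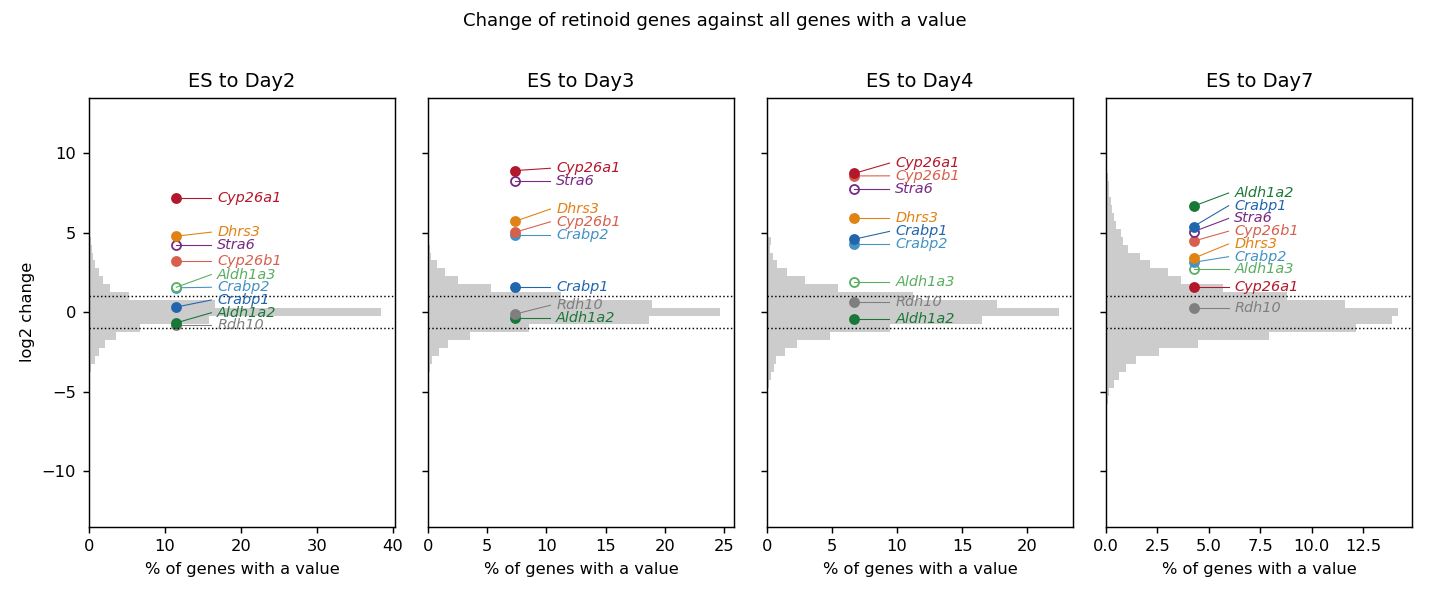
Log2 change from ES (vertical axis) to Day2, Day3, Day4 and Day7 for all genes with a value (grey bars, horizontal axis, percent of genes) and for the retinoid genes (labelled points, placed at 1 horizontal position for legibility). Open points are bounds and dotted lines mark 2-fold. Cyp26a1 stands at 7.16, 8.90 and 8.72 in the first 3 panels and at 1.58 in the last, where Aldh1a2 stands highest at 6.66.

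How the arrays are brought to one scale moves the split of raised and lowered genes, though not the direction of the retinoid genes past 2-fold. With quantile normalization 48.7% of the genes past 2-fold from ES to Day2 were raised, against 74.9% when each array was shifted to its 75th percentile and 85.4% with no normalization. The same shares were 60.3%, 48.1% and 17.9% from ES to Day3, and 62.6%, 25.5% and 3.47% from Day2 to Day3. From ES to Day4 they were 54.1% with quantile normalization and 9.54% with none. The step from Day3 to Day4 gave 42.6% and 20.1%, or 52.6% with normexp, and the last step 49.9% and 94.0%. With no normalization, the median of all genes lay at 0.27, -0.63, -1.06 and 0.01 from ES to Day2, Day3, Day4 and Day7, and at 1.06 from Day4 to Day7. With the 75th percentile shift it lay at -0.12, -0.11 and -0.35 from ES to Day3, Day4 and Day7, and at -0.25 from Day4 to Day7. All 40 changes of the 9 genes past 2-fold kept their sign under every alternative that gave a value, and 35 stayed past 2-fold. The 5 others were the 3 bounds of Aldh1a3, the Day2 to Day3 rise of Crabp1 and the Day4 to Day7 fall of Crabp2, each given above. Part of this agreement was fixed in advance. The mean over probes, with 1 probe per gene, and the other fold thresholds could not alter a value. For changes measured on both arrays, neither could the other detection flag and the filter settings. The deposited log2 table nearly repeats the 75th percentile shift. With no normalization, the rises from Day2 to Day3 were 1.02 for Cyp26a1 and 1.06 for Cyp26b1, and the changes from Day4 to Day7 were -1.27 for Dhrs3 and -1.33 for Stra6. Changes under 2-fold were less settled, and some turned their sign with no normalization: those of Rdh10 from ES to Day4 and over the steps from Day2 to Day3 and Day4 to Day7, that of Aldh1a2 to 0.02 from ES to Day2 and to -0.95 over the next step, and that of Dhrs3 from Day3 to Day4 (-0.32). With the 75th percentile shift and with the deposited log2 table, the change of Aldh1a2 was -0.21 from Day2 to Day3. Its change from Day3 to Day4 turned to 0.04 with both.

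**Figure D4:**
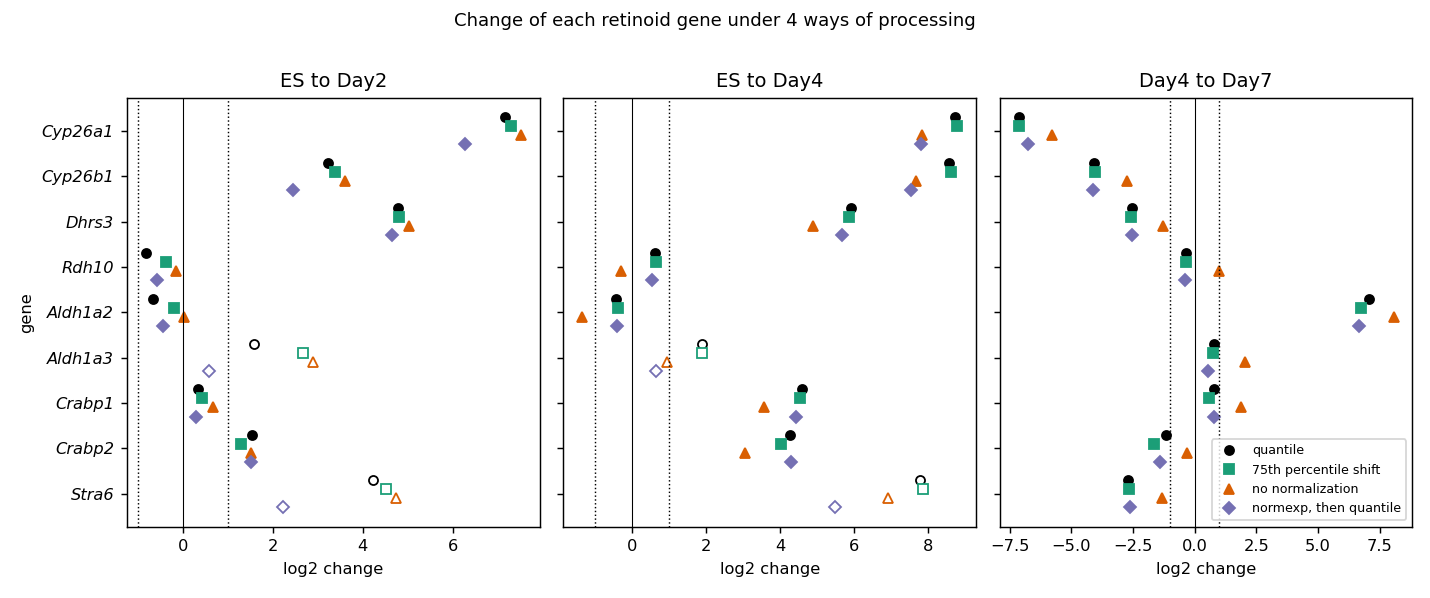
Log2 change (horizontal axis) of each retinoid gene (rows) from ES to Day2, ES to Day4 and Day4 to Day7 under 4 ways of scaling the arrays, marked by symbol. Open symbols are bounds and dotted lines mark 2-fold. For Cyp26a1, Cyp26b1, Dhrs3 and Stra6 all symbols lie on the same side of 0 and past 2-fold in all 3 comparisons, whereas those of Rdh10 lie on both sides in ES to Day4 and Day4 to Day7.

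The wider pathway held raised and lowered genes in shares that were in part close to those of all genes. Of 36 other genes for retinoid transport, storage, oxidation and cleavage, 5 of 35 with a value rose past 2-fold and 8 were lowered from ES to Day2, 4 of 27 raised and 5 lowered to Day3, 8 of 30 raised and 4 lowered to Day4, and 5 of 29 raised and 8 lowered to Day7. Over all genes, 10.7%, 15.6%, 17.0% and 24.8% were raised and 11.3%, 10.2%, 14.4% and 24.4% lowered in the same comparisons. The pathway medians were -0.01, 0.06, 0.19 and -0.05. Rbp7, a retinol binding protein, was lowered in all 4 comparisons, with changes of -1.25 to Day2, -2.30 to Day3, -4.88 to Day4 and -5.34 or lower to Day7, where it was not well above background. Fabp5, a fatty acid binding protein that can also carry RA, changed by -1.31 on Day3 and 2.38 on Day7.

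Among the other oxidising enzymes, Aldh1a7 had changes from ES of 2.61 on Day3, 5.30 on Day4 and 1.10 on Day7, and its near-identical paralog Aldh1a1, which makes RA, of -2.04 on Day2 and 1.64 on Day4. Signal of these 2 genes may be shared between their probes and is uncertain, and both were lowered from Day4 to Day7, with changes of -4.20 and -1.68. Alcohol dehydrogenases, which can oxidise retinol, went both ways: Adh1 was at least 3.33 log2 units higher on Day4 than on ES, Adh5 was lowered in all 4 comparisons, with changes of -1.56 to -1.02, and Adh7 changed by -1.96 on Day2 and by -1.03 or lower on Day4. The short-chain dehydrogenases Rdh7, Rdh16 and Dhrs9 and the retinol esterifying enzyme Lrat were well above background on Day2 only, the array on which most probes were so, with bounds against ES of 4.68, 2.16, 1.62 and 3.48. Rdh1, Rdh9 and Rdh19, of the same gene cluster as Rdh7 and Rdh16 and open to shared signal, changed by 1.05 (Rdh1 on Day3 and Day4), by -2.27 to -1.49 (Rdh9 on all 4) and by -1.07 and -1.62 (Rdh19 on Day3 and Day7).

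Further genes passed 2-fold in 1 or 2 comparisons. Rbp4 (1.20 on Day4) and Ttr (at least 1.75 on Day3 and 1.40 on Day4), which carry retinol in blood, were raised. Rbp2 (-2.56 or lower), the carotenoid cleaving Bco2 (-2.78) and the retinaldehyde dehydrogenase Aldh8a1 (-1.11) were lowered on Day2. On Day7, Rdh14 (1.39) and Bco1 (at least 1.48) were raised, while Rlbp1 (-2.02), Awat2 (-1.02 or lower), Dhrs4 (-1.61) and the retinol saturase Retsat (-1.75) were lowered. From Day4 to Day7, 5 of 30 were raised and 8 lowered, where 18.1% of all genes were raised and 18.1% lowered, with a median of -0.22 against -0.12.

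Among the receptors that read the RA signal, Rarb had the largest change from ES. Of the 6 RAR and RXR genes, all well above background on all arrays, from ES to Day2 2 were raised and 1 lowered, 2 raised and none lowered to Day3, 1 raised and 1 lowered to Day4, and 2 raised and 2 lowered to Day7. Over all genes 10.7%, 15.6%, 17.0% and 24.8% were raised and 11.3%, 10.2%, 14.4% and 24.4% lowered. Rarb, itself a known RA target, read 6.82 on ES and 12.09, 12.51, 12.77 and 12.42 on Day2, Day3, Day4 and Day7. Unlike Cyp26a1, it was 0.35 log2 units lower on Day7 than on Day4, where Cyp26a1 fell by 7.14.

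The genes whose profile was nearest to each of the 9 were looked for among 10662 genes well above background on at least 3 arrays and with a range of at least 1 log2 unit. The measure was the root mean square difference, in log2 units, of profiles centred on their mean over the 5 arrays. A probe not well above background entered at its own value or at the dimmest detected probe of that array, whichever was brighter. Foxc1, Hoxb1, Foxb1, Hba-x and Tnnc1 on ES, and Aldh1a3 on ES and Day3, entered at that floor. For Cyp26a1 the nearest were Hoxb1 (0.81), a homeobox gene of the hindbrain, and Stra8 (1.41), a gene of meiotic entry named for its stimulation by RA. Dleu7 (0.60) was among the nearest to Dhrs3, and for Cyp26b1 they were Foxb1 (0.61) and Zscan4f (0.76), the latter of a family of near-identical copies. Aldh1a2 was nearest to Mapt (0.35), which encodes the microtubule protein tau, and Tnik (0.39). Crabp2 was nearest to Foxc1 (0.25), a mesenchymal transcription factor, and Hkdc1 (0.43), and Crabp1 to Tmem176b (0.44) and Zfp536 (0.50). Stra6 was nearest to the embryonic globin genes Hbb-y (0.52) and Hba-x (0.68), whose probes may share signal with other globin genes. For Rdh10, Otos (0.08) and Spaca6 (0.10) were nearest, and for Aldh1a3 Tnnc1 (0.20) and Pcdh12 (0.21), and these 4 small values go with narrow ranges and dim probes. Among the 9 genes themselves, Dhrs3 was nearest to Crabp2 and to Stra6 (both 1.17) save for the narrow pair Rdh10 and Aldh1a3 (0.90), and the farthest pair was Cyp26a1 and Aldh1a2 (5.78). These distances describe 5 arrays and carry no error.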

How the data were processed

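Total RNA of 5 samples was labelled with Cy3 and hybridised to 1 Agilent mouse array each. The authors deposited the scanner output (Agilent Feature Extraction 10.5.1, per the submitters' processing notes), whose processed signal is an intensity after background subtraction and detrending, with detection flags. A second deposited table holds log2 values, and at least 99.99% of them on each array equal the log2 processed signal minus the array's 75th percentile, within 0.01. No column of that table belonged to another sample.

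Control and outlier spots were dropped, log2 signals of repeated spots were averaged, and arrays were quantile-normalized (limma 3.58.1, R 4.3.3), since the study's figure legend names a quantile analysis, without saying that it was this step. Further steps used Python 3.11.15, numpy 2.4.6, pandas 2.3.3 and matplotlib 3.10.9. Of 55681 probes, 26300 matched 19897 symbols through a RefSeq table of GRCm38.p6, used for names and promoters only since the array's design used an earlier one. Where a gene had several probes (5339 genes), the brightest stood for it. Changes of 2-fold were a rule of size. The number of arrays limits the precision. The steps were tested on a copy of the ES array with added noise and known changes in detected genes. That test held no array with a distribution like that of Day2. The genes, lists and rules were chosen with earlier results of these data known. Named were the 9 genes, pathway genes past 2-fold in a comparison described, receptors and markers as counts and ranges, and the 2 genes with the nearest profile. Not every gene that met these rules is reported here. Alternatives were a 75th percentile shift, no normalization, normexp (offset 50), the deposited log2 table, another detection flag, no filter, only probes detected on both arrays, the 95th percentile of ERCC probes as floor, the mean over probes, quantile normalization without Day2 or Day7, and thresholds of 1.5-fold and 4-fold.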

Additional observations from a re-analysis of the deposited data

Results flagged for a closer look

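On the Day2 array, 65.6% of the 96 probes for ERCC sequences, which are not from mouse and entered the comparisons only as an alternative floor, were well above background, against 7.29% on ES, 4.17% on Day3, 9.38% on Day4 and 7.29% on Day7. It is listed because the signal lies outside the main measurement and above its level on the ES array and the 3 others. Of the 9 retinoid genes, Stra6 and Aldh1a3 are those whose Day2 change is a bound, and at a floor set by the 95th percentile of the ERCC probes Stra6 was still raised from ES to Day2, by at least 2.15 log2 units, while Aldh1a3 had no value. The part of this signal in the Day2 values was not tested.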

How the results depend on the processing

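No paired analysis was possible because there was only 1 array for each time point. For the same reason no replicate could be left out, and a slide term could not be fitted, the second slide holding Day7 alone. Of the counts of genes raised, lowered or changed, 246 stayed within 1.5 times the value reported and 15 moved. Some of the 246 were fixed in advance, since the mean over probes could not alter a count. The deposited table also nearly repeats the 75th percentile shift. With a 1.5-fold threshold, 2 of the 9 genes were lowered from ES to Day2 (19.3% of all genes), 5 changed from Day3 to Day4 (4 raised, against 7.25% of all genes, and 1 lowered, against 9.86%) and 3 were raised from Day4 to Day7 (25.7%). With a 4-fold threshold, 2 changed from Day2 to Day3, and these 2 were raised (4.21%). With no normalization, 1 was lowered from ES to Day4 (52.7% of all genes), 1 from Day2 to Day3 (39.4%) and 1 over the step from Day3 to Day4 (9.95%), and 3 were raised from Day4 to Day7 (52.1%). From Day2 to Day3, 1 was also lowered with the 75th percentile shift (17.0% of all genes), the deposited log2 table (17.0%), the other detection flag (12.6%) and no filter on dim probes (12.3%). The median change of the 9 genes from ES to Day2 was 1.57 and became 2.67 with the 75th percentile shift, 2.66 with the deposited table, 2.89 with no normalization and 3.22 with the other flag or no filter. With no normalization it was 3.57 from ES to Day4, 0.48 from Day2 to Day3 and -0.32 from Day4 to Day7. From ES to Day7 it was 3.39 and became 4.46 with the other flag or no filter. The cause of these moves was not tested. Quantile normalization without the Day7 array was chosen after seeing the data. Signal near the background limits Aldh1a3 on ES and Day3 and Stra6 on ES, and it limits the size of the Cyp26a1 and Cyp26b1 changes from ES.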
